A study of Mus musculus with 12 samples.

Results

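The renin-angiotensin system genes described here are Ren1, Agt, Ace, Agtr1a, Mme, Enpep and Mas1, which were found by their NCBI Gene numbers among the 27179 genes of the series. All 7 were present in the table of values, and 6 passed the filter on low values that left 14972 genes for testing. The samples were whole kidneys of mice aged 8 to 12 weeks, of mixed strain according to the labels, with 3 mice in each of 4 groups. Wild-type mice and FAN1KO mice, in which Fan1 (a nuclease that repairs DNA crosslinks) was deleted by a Ggt1-driven Cre active in proximal tubule cells, were given either saline or cisplatin, an anticancer drug that crosslinks DNA and is toxic to kidney tubules. Cisplatin was given intraperitoneally at 2 mg/kg once a week for 5 weeks. The values were TPM, a measure of RNA abundance corrected for gene length that sums to 1000000 in each library. Reads assigned to genes, recovered from the steps in these values, numbered 37202057 to 82947369 per library, so that 1 read in a gene of 1 kilobase was worth at most 0.0479 TPM.

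The renin-angiotensin system is a chain of secreted proteins, peptidases and receptors that raises blood pressure and sodium retention. Renin, released by juxtaglomerular cells of the afferent arteriole, cuts angiotensinogen to angiotensin I, and angiotensin-converting enzyme turns this into angiotensin II, which acts through the type 1 receptor. Neprilysin and aminopeptidase A degrade or convert these peptides at the surface of tubule cells, and the Mas receptor binds angiotensin 1-7. Within the kidney, angiotensinogen RNA is found mainly in proximal tubule cells.

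Fan1 (NCBI Gene 330554) was read first, as a check of the labels. Its TPM was 3.80, 3.35 and 1.98 in wild-type mice on saline, 1.17, 1.54 and 2.28 in FAN1KO mice on saline, 2.33, 3.57 and 3.32 in cisplatin-treated wild-type mice and 2.72, 3.51 and 1.55 in cisplatin-treated FAN1KO mice. The genotypes overlapped under both treatments, and whole kidneys hold many cells outside the proximal tubule, so Fan1 RNA did not check the labels (exact permutation p = 0.2 under saline and 0.6 under cisplatin). One library of each group held RNA of the 4 listed Y-linked genes, Eif2s3y the most abundant, with a mean log2(TPM + 1) of 3.46 in wild-type saline replicate 3, 3.72 in FAN1KO saline replicate 1, 3.72 in wild-type cisplatin replicate 1 and 3.93 in FAN1KO cisplatin replicate 3, against at most 0.10 in the other 8. Each of these 4 libraries also had the lowest median ratio of its group to the geometric mean library (0.788, 0.752, 0.841 and 1.09), so the Y-linked covariate used below was not separate from a difference of scale. Markers of adrenal cortex stood out in wild-type saline replicate 2, where the 5 listed genes summed to 182 TPM, with Hsd3b1 the most abundant at 68.5 TPM, against 1.26 to 3.70 TPM in the other 11 libraries. In all the comparisons below, fewer cells of a type and less RNA per cell cannot be told apart.

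Ren1 (NCBI Gene 19701, chromosome 1, 133350674 to 133360320, GRCm38) encodes renin. Its TPM was 652, 409 and 129 in wild-type mice on saline, 157, 226 and 191 in FAN1KO mice on saline, 168, 711 and 481 in cisplatin-treated wild-type mice and 46.9, 37.1 and 17.9 in cisplatin-treated FAN1KO mice. All 3 FAN1KO cisplatin libraries lay below all 9 others. These 3 libraries also had the lowest share of TPM from mitochondrially encoded genes, at 10.2%, 13.7% and 16.7% against 18.3% to 22.7% in the other 9, and whether this comes from the tissue or the handling was not tested. Agt (NCBI Gene 11606, chromosome 8, 124556587 to 124569706), which encodes angiotensinogen, had a TPM of 83.3, 72.7 and 53.2 in wild-type mice on saline, 22.3, 76.4 and 28.1 in FAN1KO mice on saline, 32.2, 76.1 and 68.4 in cisplatin-treated wild-type mice and 116, 134 and 111 in cisplatin-treated FAN1KO mice. The same 3 libraries that were lowest in Ren1 were the 3 highest in Agt. Separation of this group was common. It did not overlap wild-type cisplatin libraries for 44.3% of all genes tested, or FAN1KO saline libraries for 54.9%. The share for 3 libraries against all 9 others is not given here. Some mouse strains carry a second, nearly identical renin gene, Ren2, which was not analysed here, and its reads were not told apart from those of Ren1.

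The promoters of Ren1 and Agt are shown because after cisplatin in FAN1KO mice the RNA of the enzyme fell and that of its substrate rose. They are the RefSeq promoters of build GRCm38.p6, 250 bases before to 50 after the annotated start, at chr1:133350424-133350723 on the plus strand for Ren1 and chr8:124569657-124569956 on the minus strand for Agt, with the motif TATAAA in capitals.
Ren1: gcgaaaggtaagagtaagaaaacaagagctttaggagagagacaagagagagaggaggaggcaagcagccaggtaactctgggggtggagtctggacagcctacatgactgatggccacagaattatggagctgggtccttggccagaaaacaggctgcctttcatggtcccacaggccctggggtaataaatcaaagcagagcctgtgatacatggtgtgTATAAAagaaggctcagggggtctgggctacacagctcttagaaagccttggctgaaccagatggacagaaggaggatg
Agt: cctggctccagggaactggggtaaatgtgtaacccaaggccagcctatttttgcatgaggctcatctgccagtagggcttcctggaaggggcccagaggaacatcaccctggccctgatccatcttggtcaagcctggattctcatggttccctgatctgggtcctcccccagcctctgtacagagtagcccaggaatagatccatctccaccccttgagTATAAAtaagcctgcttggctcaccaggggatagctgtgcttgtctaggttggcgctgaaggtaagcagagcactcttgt
Each held TATAAA once on its own strand, beginning 29 bases before the start in Ren1 and 30 bases before it in Agt. Counted on either strand, the motif was in 4 of the 9 promoters searched, which belong to 6 of the 7 genes, the other 2 being promoters of Ace and Enpep with it on the opposite strand. By the same rule it was in 4473 of 32851 promoters of the same length, or 13.6%. The motifs CCAAT and TGACG were also searched, and neither was in the promoter of Ren1 or of Agt. They were in 37.4% and 20.8% of the 32851 promoters. Ren1 and Agt were chosen for their RNA, and the promoter of Agtr1a was not analysed here.

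**Figure D1:**
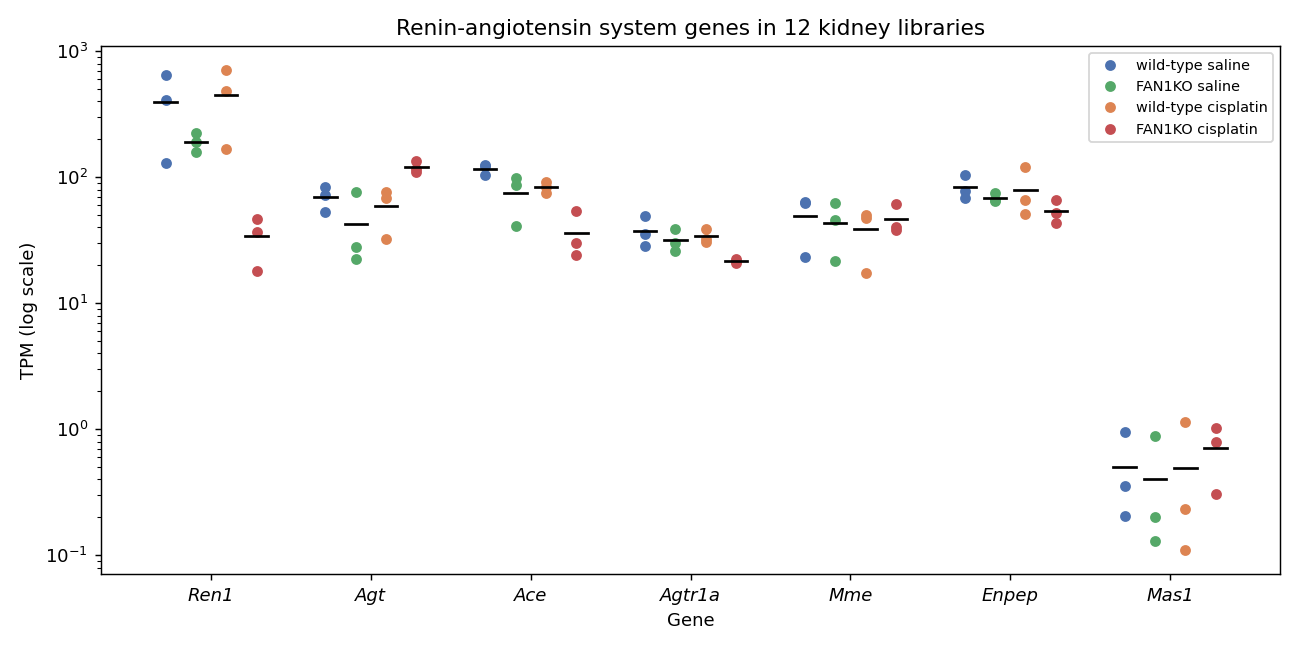
TPM of the 7 genes on a log scale, with 1 point per library and a bar at the mean of each group of 3. The FAN1KO cisplatin points of Ren1 lie below those of every other group, at 17.9 to 46.9 TPM, and those of Agt lie above, at 111 to 134 TPM.

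The first comparison asked how FAN1KO kidneys differed from wild-type kidneys when both had received cisplatin. Ren1 RNA fell 13.3-fold, from 453 ± 273 TPM to 34.0 ± 14.7 TPM (mean ± SD, n = 3 each), a log2 fold change of -3.57 (SE 0.63, limma adjusted p = 0.00394). Ace (NCBI Gene 11421, chromosome 11), the converting enzyme, fell 2.31-fold, from 83.5 ± 7.99 to 36.1 ± 15.7 TPM (log2 fold change -1.26, SE 0.33, limma adjusted p = 0.0203). Its TPM was 91.5, 75.5 and 83.4 in cisplatin-treated wild-type mice and 30.3, 24.2 and 53.9 in cisplatin-treated FAN1KO mice, and the groups did not overlap. Agtr1a (NCBI Gene 11607, chromosome 13), the type 1 receptor for angiotensin II, fell 1.57-fold, from 34.0 ± 4.36 to 21.6 ± 0.783 TPM (log2 fold change -0.62, SE 0.20, limma adjusted p = 0.0423). Its TPM was 32.4, 38.9 and 30.7 in cisplatin-treated wild-type mice and 22.3, 20.8 and 21.8 in cisplatin-treated FAN1KO mice. The 3 receptor values of the FAN1KO group had an SD of 3.62% of their mean, the smallest of any of the 7 genes in any group.

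Agt was 2.04-fold higher in the same comparison, at 120 ± 12.1 against 58.9 ± 23.4 TPM, and the groups did not overlap, but the change did not pass the test over all genes (log2 fold change 1.11, 95% interval 0.16 to 2.05, limma adjusted p = 0.0839). Over the alternatives other than single libraries left out, its limma adjusted p ranged from 0.0138, with the Y-linked genes as a covariate, to 0.150. With 1 library left out it ranged from 0.0274 to 0.279. For Ren1, Ace, Agtr1a and Agt the exact two-sided permutation test gave 0.1, the smallest p that 3 mice against 3 allow. Mme (NCBI Gene 17380), which encodes neprilysin, was at 46.7 ± 12.7 against 38.6 ± 18.4 TPM and Enpep (NCBI Gene 13809), which encodes aminopeptidase A, was at 53.7 ± 11.3 against 78.8 ± 36.3 TPM. Neither passed the test (limma adjusted p = 0.625 and 0.240), and their intervals on the log2 scale were -0.76 to 1.51 and -1.09 to 0.15.

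Thus 3 of the 6 genes tested fell and 0 rose, where 4.37% of all 14972 genes tested were called lower and 19.6% were called higher. The groups of 3 did not overlap for 4 of these 6, which was so for 44.3% of all genes tested. The calls of Ace and Agtr1a depended on single libraries, and that of Agtr1a was also lost with no filter on low values (adjusted p = 0.0546). Leaving out 1 library moved the adjusted p of Ace over 0.00774 to 0.0812 and that of Agtr1a over 0.0245 to 0.116, and 1 of the 6 genes, Ren1, was called without wild-type cisplatin replicate 1, without FAN1KO cisplatin replicate 1 or without FAN1KO cisplatin replicate 2. The adjusted p of Ren1 stayed between 0.00221 and 0.0150 over the 12 libraries left out in turn, and its log2 fold change ranged from -4.17 to -3.13.

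Under saline the question was whether the genotypes already differed without the drug. None of the 6 genes tested was called by limma in either direction at an adjusted p under 0.05, and 0 of them had an unadjusted p under 0.05 or were called by limma voom on the recovered reads. Among all genes 0.427% were called lower and 0.341% higher. Ren1 was at 192 ± 34.4 TPM in FAN1KO and 397 ± 262 TPM in wild-type kidneys (log2 fold change -0.78, 95% interval -2.17 to 0.62), an interval that leaves a large decrease open. Ace was the 1 gene of the 6 whose groups did not overlap, which was so for 12.5% of all genes, with 98.2, 86.4 and 41.3 TPM in FAN1KO and 122, 104 and 124 TPM in wild-type kidneys (limma adjusted p = 0.605).

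The effect of cisplatin was then compared within each genotype. In FAN1KO mice, 2 of the 6 genes fell and 1 rose, where 4.90% of all genes were called lower and 34.9% higher. Ren1 fell 5.64-fold, from 192 to 34.0 TPM (log2 fold change -2.55, SE 0.63, limma adjusted p = 0.00994). Agt rose 2.85-fold, from 42.3 ± 29.7 to 120 ± 12.1 TPM (log2 fold change 1.69, SE 0.43, limma adjusted p = 0.0108). Ace fell 2.09-fold (log2 fold change -1.03, limma adjusted p = 0.0293), with 1 saline library, at 41.3 TPM, inside the range of the cisplatin group. Without that library, FAN1KO saline replicate 3, the adjusted p of Ace was lower, whereas leaving out FAN1KO saline replicate 1 or 2 or FAN1KO cisplatin replicate 1 or 2 ended its call (adjusted p up to 0.112), as did fitting only the 6 libraries compared (adjusted p = 0.0844). Agtr1a was at 21.6 against 31.7 TPM and was not called (limma adjusted p = 0.0591). Over the alternatives other than single libraries left out, this adjusted p ranged from 0.00247, under median-ratio scaling, to 0.0927. With 1 library left out it ranged from 0.0309 to 0.194. The groups did not overlap for Ren1, Agt and Agtr1a, which was so for 54.9% of all genes.

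In wild-type mice limma called none of the 6 genes after cisplatin, and 0 had an unadjusted p under 0.05 or were called by limma voom on the recovered reads. Of all genes 0% were called lower by limma and 0.0601% higher, with 67 lower and 382 higher at an unadjusted p under 0.05 and 0 lower and 7 higher by limma voom. Ren1 was at 453 ± 273 TPM after cisplatin and 397 ± 262 TPM after saline, and Agt at 58.9 ± 23.4 and 69.7 ± 15.3 TPM. Ace, at 83.5 ± 7.99 and 117 ± 11.1 TPM, was the 1 gene whose groups did not overlap, which was so for 6.28% of all genes, and its log2 fold change of -0.48 had a 95% interval of -1.20 to 0.24. The adrenal library belongs to the saline group here. Without it the log2 fold change of Ace was -0.56 and that of Ren1 0.41.

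Whether cisplatin acted differently in the genotypes was tested as an interaction, the cisplatin effect in FAN1KO minus that in wild-type kidneys on the log2 scale. It was -2.79 for Ren1 (95% interval -4.77 to -0.82, limma adjusted p = 0.0856) and 2.00 for Agt (95% interval 0.67 to 3.33, limma adjusted p = 0.0726). By limma 0 of the 6 genes passed, with 2 at an unadjusted p under 0.05 and 0 called by limma voom, while 1.02% of all genes were called lower and 5.22% higher. The difference in drug effect between genotypes was thus not established for either gene at this threshold. With the Y-linked covariate, which also carries the scale of those libraries, both passed, at an adjusted p of 0.00261 for Ren1 and 0.00863 for Agt. Under median-ratio scaling 1 of the 6 genes, Ren1, was called lower. Over the alternatives other than single libraries left out, the adjusted p ranged from 0.00261 to 0.116 for Ren1 and from 0.00863 to 0.105 for Agt.

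**Figure D2:**
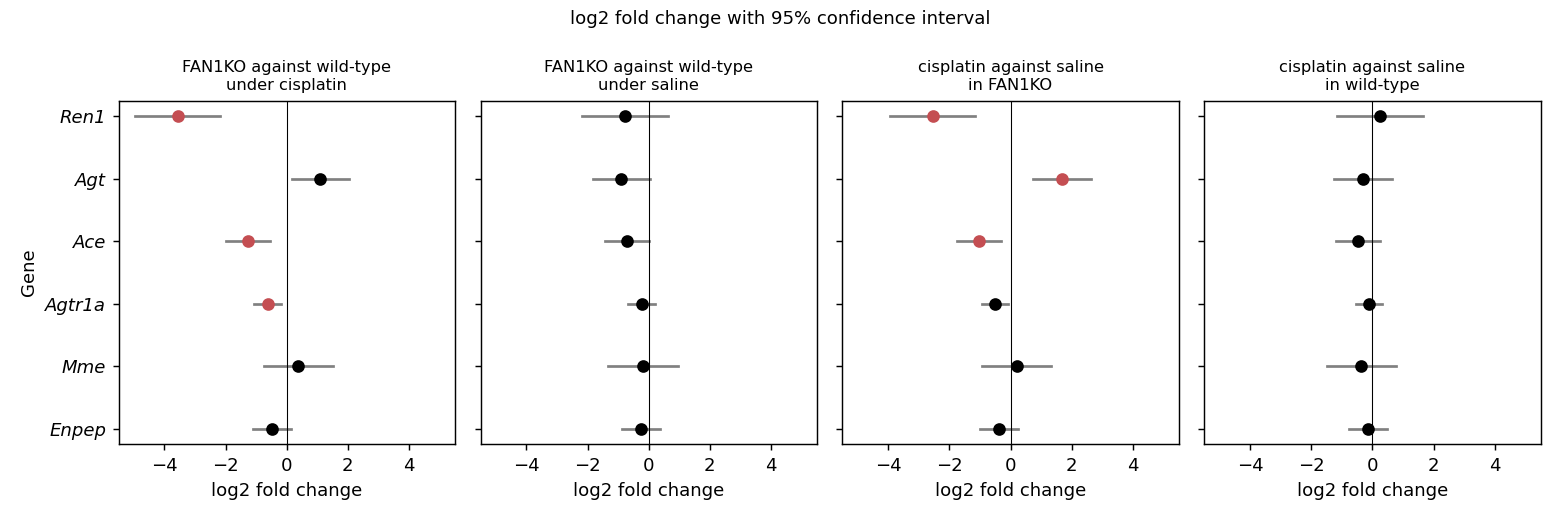
The log2 fold change of each gene that passed the filter, as a point with its 95% confidence interval from limma, in the 4 comparisons. Red points have an adjusted p under 0.05, and Ren1 stands farthest from 0, at -3.57, in cisplatin-treated FAN1KO against wild-type mice.

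The order of the 7 genes by mean TPM was alike in both wild-type groups and differed in FAN1KO cisplatin kidneys. Ren1 was the most abundant in wild-type saline (397 TPM), wild-type cisplatin (453 TPM) and FAN1KO saline kidneys (192 TPM), followed by Ace and Enpep, which did not differ beyond their spread except in wild-type saline kidneys, where every value of Ace was above every value of Enpep. In FAN1KO cisplatin kidneys Agt came first (120 TPM), and Ren1 (34.0 TPM) and Ace (36.1 TPM) did not differ beyond their spread. Mas1 (NCBI Gene 17171, chromosome 17), the receptor for angiotensin 1-7, was last in every group, at 0.110 to 1.13 TPM and 6 to 118 reads per library, and was left untested. It overlaps the noncoding gene Airn, and Ace overlaps Gm11651, and reads of overlapping genes could not be told apart where the counting is not given in the sources used here.

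Because both genes of a ratio come from the same library, ratios do not depend on how the library was scaled. They were computed after seeing the data. The Ren1 to Agt ratio of TPM was 7.83, 5.62 and 2.43 in wild-type saline, 7.05, 2.96 and 6.80 in FAN1KO saline, 5.22, 9.34 and 7.04 in wild-type cisplatin and 0.405, 0.277 and 0.162 in FAN1KO cisplatin kidneys. It was 25.6-fold lower in FAN1KO than in wild-type kidneys under cisplatin, without overlap, which follows from Ren1 being lowest and Agt highest in the same 3 libraries and is no further test.

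**Figure D3:**
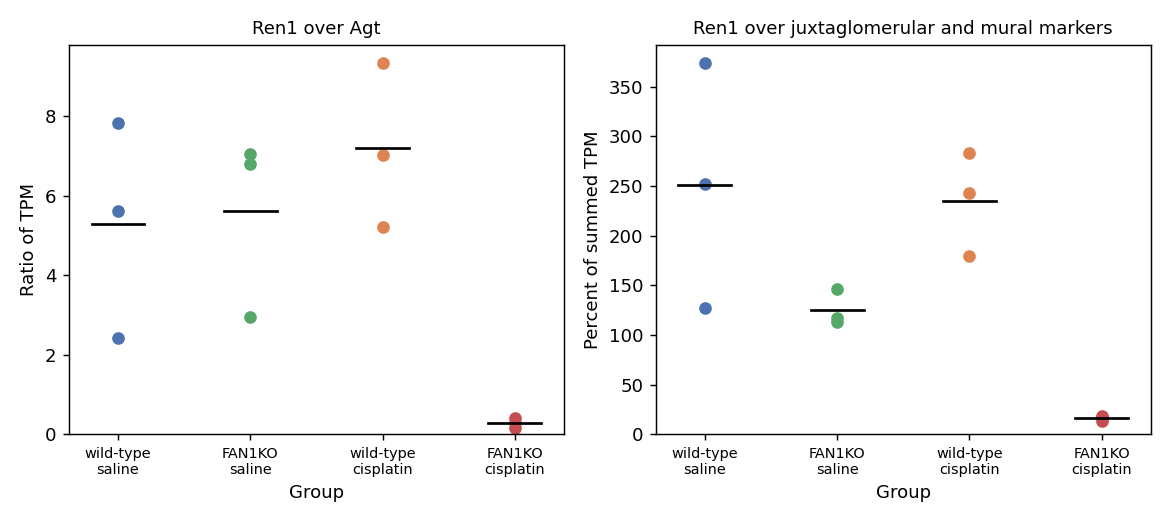
Ratio of the TPM of Ren1 to that of Agt, and Ren1 as a percent of the summed TPM of 9 juxtaglomerular and mural markers, with 1 point per library and a bar at the group mean. The FAN1KO cisplatin libraries have the lowest values of both, at most 0.405 for Ren1 over Agt and at most 18.9% of the markers.

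Of 19 other genes listed for the pathway, 11 passed the filter. Under cisplatin, 1 fell and 3 rose in FAN1KO against wild-type kidneys, with a median log2 fold change of 0.23 beside 0.24 over all genes, of which 4.37% were called lower and 19.6% higher, so that as a list these genes were near the background. Anpep, an aminopeptidase that trims angiotensin III, fell 2.10-fold to 40.5 TPM (log2 fold change -1.05, limma adjusted p = 0.00136). Thop1 and Prep, which cleave angiotensin I to angiotensin 1-7, rose 1.48-fold to 25.4 TPM and 1.42-fold to 27.4 TPM, and Rnpep, aminopeptidase B, rose 1.22-fold to 54.4 TPM. These 3 rises depended on the shift of the whole table. Median-ratio scaling, which sets the median ratio between libraries to a common value, took the median of all genes from 0.24 to -0.02 in this comparison and from 0.37 to -0.03 in cisplatin against saline in FAN1KO mice. Under it the log2 fold changes of Thop1, Prep and Rnpep were 0.25, 0.18 and -0.03, so that the direction of Rnpep flips, and 0 of the 3 were called, whereas Anpep stayed lower at -1.35. The share of all called genes that were higher went from 81.8% to 53.0% in the first comparison and from 87.7% to 50.7% in the second. Ren1, Ace and Agtr1a were lower by more under this scaling, at -3.87, -1.56 and -0.92, and Agt was at 0.80. The most abundant genes of the list, Ctsa (149 TPM over the 12 libraries) and Atp6ap2, the prorenin receptor (91.4 TPM), were not called in any comparison.

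Of 5 kallikrein-kinin genes tested, limma called 0 in cisplatin-treated FAN1KO against wild-type mice, 1 having an unadjusted p under 0.05 and 0 being called by limma voom, while 4 were called higher with the Y-linked covariate. Klk1, tissue kallikrein, had the highest level, at 2711, 1993 and 1956 TPM in wild-type saline kidneys and 4092, 4965 and 6908 TPM in FAN1KO saline kidneys, without passing the test (limma adjusted p = 0.0760). Under cisplatin it was at 2141, 2094 and 2464 TPM in wild-type and 2733, 5136 and 3034 TPM in FAN1KO mice, also without overlap and without passing the test (limma adjusted p = 0.101). Of 11 mineralocorticoid response genes, 1 rose and 0 fell under cisplatin in FAN1KO against wild-type kidneys, with a median of 0.37 beside 0.24 over all genes, of which 19.6% were called higher, and 6 were called higher with the Y-linked covariate. Of 10 other brush-border peptidases, 4 fell and 0 rose in that comparison (median -0.90), beside 4.37% of all genes called lower, and Cltrn fell 1.80-fold to 1063 TPM. With the Y-linked covariate 6 of the 10 were called lower and 1 higher.

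Marker genes of kidney cell types are given beside the 4.37% of all genes called lower and the 19.6% called higher in the same comparison, with a median of 0.24. Both shares are of TPM without median-ratio scaling. Under that scaling 7 of the 12 proximal tubule markers and 4 of the 10 other brush-border peptidases were called lower, and 0 of either list higher. Of 12 proximal tubule markers 9 fell and 0 rose in cisplatin-treated FAN1KO against wild-type mice (median -0.82), and their summed TPM was 3473, 3829 and 5782 in FAN1KO cisplatin kidneys against at least 7411 in the other 9 libraries, with Slc34a1 or Slc27a2 the most abundant and none at 0. All 5 tubule injury markers rose, their sum being 1165, 785 and 1110 TPM against 7.50 to 149 TPM elsewhere. Of 5 markers of the S3 proximal tubule 1 fell (median -1.24), and 4 were called lower with the Y-linked covariate. Of these markers Slc7a13 was at 790, 719, 795 and 162 TPM in the 4 libraries with Y-linked RNA. It was at most 6.68 TPM in the others. Of 6 collecting duct markers 3 rose (median 0.53), their sum being 1226, 1502 and 1821 TPM against 373 to 891 TPM elsewhere. Of these markers 1 was called higher under median-ratio scaling and 5 with the Y-linked covariate. All 5 erythroid markers fell, to a sum of 8.01, 17.5 and 85.5 TPM against 619 to 7935 TPM elsewhere. Of 6 hepatocyte markers 2 rose and 0 fell (median 0.86), and with the Y-linked covariate 3 were called higher and 1 lower. Apoa2 was at 8.16 TPM in FAN1KO cisplatin and 1.67 TPM in wild-type cisplatin kidneys, and Alb at 2.26 and 8.76 TPM. Of 9 juxtaglomerular and mural markers 1 rose and 0 fell, with sums of 248, 207 and 134 TPM in FAN1KO cisplatin and 93.5, 251 and 198 TPM in wild-type cisplatin kidneys, and with the Y-linked covariate 1 was called lower and 3 higher. Of 7 endothelial (median -0.95) and 5 podocyte markers (median -0.0094) limma called 0 in either direction, with 0 at an unadjusted p under 0.05 and 0 called by limma voom. The endothelial sums were 221, 146 and 63.2 TPM in FAN1KO cisplatin and 85.9, 417 and 259 TPM in wild-type cisplatin kidneys. Of 6 macrophage markers (median 1.45) 1 rose, where 4 had an unadjusted p under 0.05. With the Y-linked covariate 6 of the 7 endothelial markers were called lower and 4 macrophage markers higher, and under median-ratio scaling 0 macrophage markers were called. The part of these cell type markers in the results for the 7 genes was not tested.

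Relative to these markers, Ren1 was 16.7% ± 2.98 of the summed juxtaglomerular and mural markers in FAN1KO cisplatin kidneys and 235% ± 51.9 in wild-type cisplatin kidneys, 14.0-fold less (exact permutation p = 0.1). Tagln and Acta2, which smooth muscle cells share, carried most of this sum, so it is not a count of renin cells. Akr1b7, the gene of the list tied to renin cells, was at 5.26 ± 2.75 TPM in FAN1KO cisplatin and 11.7 ± 5.33 TPM in wild-type cisplatin kidneys and did not pass the test (limma adjusted p = 0.169). Ace was 0.812% ± 0.158 of the summed proximal tubule markers in FAN1KO cisplatin kidneys and 1.00% ± 0.0141 in wild-type cisplatin kidneys, 1.24-fold less without overlap (exact permutation p = 0.1), where the TPM differed 2.31-fold. On this scale Ace was also lower in FAN1KO than in wild-type mice on saline (0.776% and 1.30%, 1.68-fold) and in wild-type mice after cisplatin than after saline (1.30-fold), without overlap in either (exact permutation p = 0.1 each). By TPM limma called Ace in neither comparison. Several ratios were each compared in 4 ways, and by ranks alone 10% of comparisons of 3 against 3 do not overlap. In FAN1KO mice Ace was at 0.776% of these markers after saline and 0.812% after cisplatin, and the groups overlapped. Agt was 2.92% ± 0.869 and 0.732% ± 0.348 of them in FAN1KO and wild-type cisplatin kidneys, 3.99-fold more, where the markers were lowest and Agt highest in the same 3 libraries. Mme did not pass the test by TPM, at 46.7 in FAN1KO and 38.6 in wild-type cisplatin kidneys. On the scale of these markers it was 2.40-fold higher (exact permutation p = 0.1), where the markers were lowest in the same 3 libraries. Enpep, 1.35-fold higher on it, and Agtr1a, 1.86-fold lower against the juxtaglomerular and mural markers, overlapped between these groups (exact permutation p = 0.3 each).

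**Figure D4:**
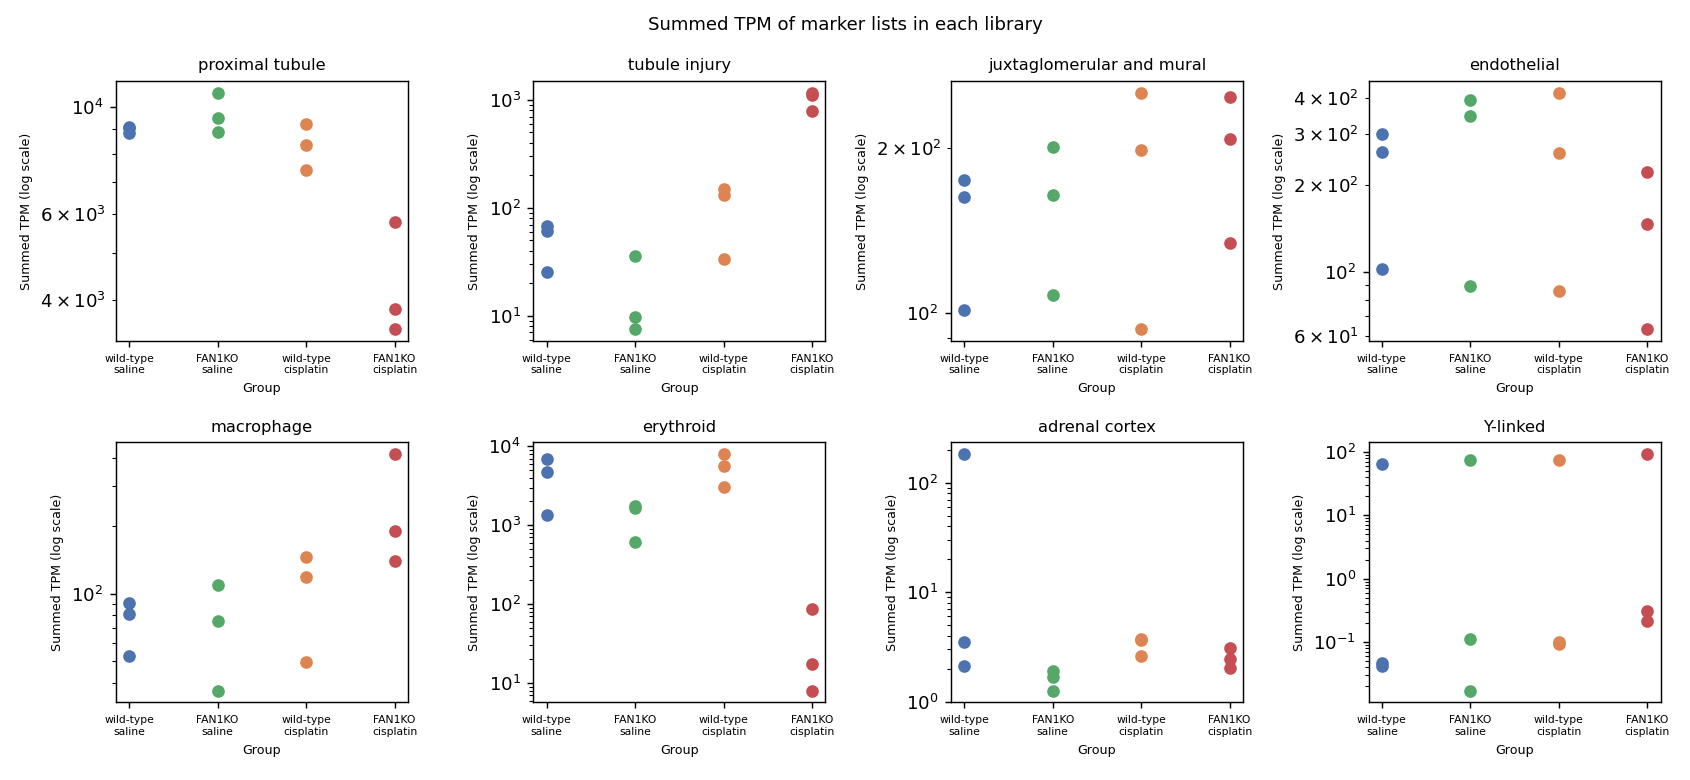
Summed TPM of 8 marker lists on log scales, with 1 point per library. The FAN1KO cisplatin libraries have the lowest proximal tubule sums (3473 to 5782 TPM) and the highest tubule injury sums (785 to 1165 TPM), and 1 wild-type saline library has 182 TPM of adrenal cortex markers.

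Within each group the genes also varied with the Y-linked libraries. The library with Y-linked RNA had the lowest Ren1 and the lowest Agt of its group in all 4 groups, and the highest Ace in all 4, while the whole table lay lower in these libraries by median ratio. Mme was lowest in that library in 3 of the 4 groups. Without these 4 libraries, the log2 fold change of Ren1 in cisplatin-treated FAN1KO against wild-type mice was -3.78, that of Ace -1.52 and that of Agtr1a -0.66, and all 3 were called. Their part in the spread within groups was not tested.

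The genes whose pattern over the 12 libraries was most like each member, by Pearson correlation of log2(TPM + 1), are given as a description. They share the libraries and the differences between groups. For Ren1 they were Slc25a3 (0.966), Cpeb3 (0.960) and Atp5a1 (0.953), and for Agt Plau (0.959), Hspb2 (0.956) and Slc38a10 (0.956). For Ace they were Mep1b (0.968), Ghr (0.967) and Slco1a6 (0.961), and for Agtr1a Gcsh (0.937), Dlg2 (0.929) and Slc19a3 (0.923). Mme was closest to Gzf1 (0.961), Zfp704 (0.958) and Mab21l4 (0.956), and Enpep to Cks2 (0.938), Cryz (0.917) and Fut8 (0.901).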

How the data were processed

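The data were RNA sequencing libraries of 12 whole kidneys, grouped by their labels. The authors deposited TPM for 27179 genes, and the labels name limma and build mm10. The aligner and counter are not given in the sources used here. Gene names came from RefSeq, GRCm38.p6. All 232991 values above 0 were whole reads within 0.002 of a read once each gene's length was recovered, and these reads served for 1 alternative and for depth.

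A gene was tested if 3 or more libraries had a TPM of 1 or more, on log2(TPM + 1), a scale that understates changes of low genes, by limma 3.58.1 in R 4.3.3, with 4 group means, a mean-variance trend and Benjamini-Hochberg adjustment over 14972 genes (threshold 0.05). Single genes were compared by the exact two-sided permutation test. The steps were tested on simulated data. Voom, a function of limma, used trimmed-mean (TMM) factors from own code. Tables used pandas 2.3.3 and numpy 2.4.6 under Python 3.11.15, and plots matplotlib 3.10.9. The other alternatives were a pseudocount of 0.1, no filter, a replicate block, median-ratio scaling, TPM without mitochondrially encoded genes, only the 6 libraries compared, a Y-linked covariate, no libraries with Y-linked RNA, no trend, and each library left out in turn. Ratios within a library were added after seeing the data.

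The members and lists were chosen with earlier results of these data known. Named were all members, other pathway genes called or among the 3 of highest mean TPM, up to 3 of highest mean TPM in other lists, the 3 genes most correlated with each member, and Akr1b7. Other assays of the study were not analysed here, and 1 listed gene is counted in its lists but not reported here.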

Additional observations from a re-analysis of the deposited data

Results flagged for a closer look

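The effect of cisplatin differed between FAN1KO and wild-type kidneys, by limma's interaction test with an adjusted p under 0.05, for 10 of the 65 tested genes named from the lists, beside 1.02% of all genes called lower and 5.22% called higher. Other pathway genes were named partly because they were called, so this count is no test against the share of all genes. Of these 10, 0 are among the 7 renin-angiotensin members. The log2 difference of the effects was -0.918 for Anpep and 0.754 for Thop1, of the wider pathway. It was -1.44 for Slc34a1 and -0.865 for Pdzk1, proximal tubule genes, and 5.53 for Havcr1, 5.80 for Lcn2 and 4.45 for Krt20, tubule injury genes. For the globin genes it was -5.89 (Hba-a1), -6.23 (Hba-a2) and -5.59 (Hbb-b1). The calls of Anpep, Thop1, Slc34a1 and Pdzk1 were lost under median-ratio scaling (adjusted p = 0.0646, 0.267, 0.0750 and 0.0505) and by limma voom (0.0659, 0.180, 0.0860 and 0.0552), and that of Krt20 was lost by limma voom (0.323). Under median-ratio scaling the differences of Anpep, Slc34a1 and Pdzk1 were larger, at -1.27, -1.80 and -1.23, and that of Thop1 was smaller, at 0.41. Their causes were not tested.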

How the results depend on the processing

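Mme was the gene whose direction depended most on the choices made. Its log2 fold change in cisplatin-treated FAN1KO against wild-type mice was -0.0178 without the 4 libraries with Y-linked RNA and ranged from -0.107 to 0.636 with 1 library left out in turn. In cisplatin against saline in FAN1KO mice it was -0.257 under median-ratio scaling, -0.135 without the 4 libraries with Y-linked RNA and -0.218 by voom on recovered reads, and -0.225 to 0.514 with 1 library left out. With 1 library left out it ranged from -0.652 to 0.235 in FAN1KO against wild-type kidneys under saline. In cisplatin against saline in wild-type mice, the ranges with 1 library left out were -0.831 to 0.117 for Mme, -0.419 to 0.844 for Ren1, -0.536 to 0.0722 for Agt, -0.291 to 0.0865 for Agtr1a and -0.496 to 0.114 for Enpep, and in the interaction -0.483 to 0.126 for Enpep.

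The number of the 6 genes called in cisplatin-treated FAN1KO against wild-type mice was 1 to 3 with 1 library left out. In cisplatin against saline in FAN1KO mice it was 5 without the 4 libraries with Y-linked RNA and 2 to 4 with 1 library left out. In the interaction it was 1 under median-ratio scaling, 2 with the Y-linked covariate, 1 without the 4 libraries with Y-linked RNA and 0 to 1 with 1 library left out.

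Of all genes, 3585 were called in cisplatin-treated FAN1KO against wild-type mice, and 2175 with only the 6 libraries of the comparison, 7323 with the Y-linked covariate, 5490 without the 4 libraries with Y-linked RNA and 1539 to 3830 with 1 library left out. Under saline 115 were called, and 72 with no filter, 27 with only the 6 libraries, 421 with the covariate, 295 without the 4 libraries and 43 to 129 with 1 left out. In cisplatin against saline in FAN1KO mice 5962 were called, and 9141 with the covariate and 3622 to 6393 with 1 library left out. In wild-type mice 9 were called, and 15 under median-ratio scaling, 14 with mitochondrially encoded genes left out, 0 with only the 6 libraries, 58 with the covariate, 63 without the 4 libraries and 0 to 41 with 1 left out. In the interaction 935 were called, and 488 under median-ratio scaling, 599 with mitochondrially encoded genes left out, 4734 with the covariate, 2438 without the 4 libraries, 324 by voom and 269 to 1197 with 1 left out.

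The replicate block, with the replicate number as a term, gave 61 genes called in FAN1KO against wild-type kidneys under saline, 0 in cisplatin against saline in wild-type mice and 424 in the interaction. Under cisplatin it called 2 of the 6 genes in FAN1KO against wild-type mice, since Agtr1a was lost (adjusted p = 0.0720). The cause of these differences was not tested.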

Other observations

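Hsd3b1, listed here as an adrenal cortex marker, was low in every kidney but the adrenal library and lower in FAN1KO mice. It was at 1.08 and 0.884 TPM in the other 2 wild-type saline kidneys and at 0.926, 1.22 and 1.40 TPM in cisplatin-treated wild-type mice. In FAN1KO mice it was at 0.0555, 0.0904 and 0.108 TPM on saline and at 0.0516, 0.0962 and 0.0244 TPM after cisplatin, on 1 to 5 reads per library. It passed the filter on low values only through wild-type libraries, and limma did not call it in cisplatin-treated FAN1KO against wild-type mice (adjusted p = 0.504), so this is a description of values picked after seeing them.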
